A study of Equus caballus with 45 samples.

Results

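The 4 genes examined here encode colony-stimulating factors and a related cytokine: CSF1 (macrophage colony-stimulating factor, M-CSF), CSF2 (granulocyte-macrophage colony-stimulating factor, GM-CSF), CSF3 (granulocyte colony-stimulating factor, G-CSF) and LIF (leukemia inhibitory factor). They were found by symbol among the 20881 genes of each of 2 count tables, and all 4 were present in both tables. Equine RNA was sequenced in 45 libraries of 4 cell types. The 12 mesenchymal stromal cell (MSC) libraries came from bone marrow cells of the donor horses PC, 99 and 92, which were left untreated, given a TLR3 agonist (poly I:C), given a STING agonist (2′3′-cGAMP), or carried the label CpG, with 1 library for each donor and condition. The 33 joint cell libraries came from synoviocytes, chondrocytes and monocyte-derived macrophages, 11 each. Within each of these cell types, 9 libraries received both inflammatory cytokines, IL-1β and TNF-α, and also conditioned medium (CM) of MSC donors PC, ORC and AG1. The medium came from untreated MSC (resting MSC-CM), from MSC given the TLR3 agonist (TLR-MSC-CM) or from MSC given the STING agonist (STING-MSC-CM), with 3 libraries each. The remaining libraries of each cell type were 1 with IL-1β and TNF-α only and 1 with no addition.

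Several features of the cultures limit what the groups can show. The cells of each joint cell type came from 1 horse, so replicates of a condition were wells that differed in the MSC donor of the medium. In comparisons of conditions or cell types, p-values measured the spread between such wells. In the later contrasts between MSC donors, they measured the spread left between libraries after donor and condition were fitted, not the spread between donors. MSC were exposed to an agonist for 2 h, and joint cells were kept with the medium for 24 h, washed, and cultured for another 24 h before RNA was taken. Macrophages were grown from blood mononuclear cells with human M-CSF, the protein that CSF1 encodes, at 30 ng/mL for 5 days. The labels give the dose of each cytokine as 10 ng/mL for macrophages and 20 ng/mL for synoviocytes, and none for chondrocytes, whereas the methods describe a single dose, so that cell type and labelled dose cannot be told apart. The lone control libraries have no replicate, and their titles also carry an MSC donor name although they received no MSC medium.

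Colony-stimulating factors are secreted proteins that direct the survival, growth and activation of myeloid cells. CSF1 acts through the receptor CSF1R on monocytes and macrophages, CSF2 through a receptor of a specific alpha chain and a shared beta chain, and CSF3 through CSF3R on neutrophils and their precursors. LIF belongs to the IL-6 family and signals through LIFR paired with IL6ST (gp130). In joints, stromal cells that meet IL-1β or TNF-α are a known source of these cytokines, and the CSF2, CSF3 and LIF promoters are known to respond to NF-κB, while CSF1 is made by many cells without stimulation.

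Libraries held 23525704 to 54103873 counts, so that 3 counts, the floor used here, corresponded to 0.0554 to 0.128 CPM, the reads of a gene scaled to a library of 1000000 counted reads. Macrophage markers summed to 8890 to 11901 CPM in the 11 macrophage libraries and to at most 40.8 CPM in synoviocytes and chondrocytes. In MSC they summed to 13.0 to 16.8 CPM untreated, to 54.6 to 325 CPM with the STING agonist, and to 139 and 116 CPM with the TLR3 agonist in donors PC and 99, while donor 92 lay below its untreated library. Only 1 of the 11 markers had a mean above 1 CPM in MSC, and CD163 and AIF1 had no count there. The T cell markers CD3E, CD3D and CD2 summed to 174 to 318 CPM in macrophage libraries and to at most 0.0359 CPM in the other joint cells, with none counted in chondrocytes. The neutrophil markers CSF3R, MPO and ELANE summed to 262 to 591 CPM in macrophage libraries, where 2 of the 3 had a mean above 1 CPM. In the other joint cells they summed to at most 0.474 CPM. The chondrocyte-defining collagen gene COL2A1 was at most 0.368 CPM in the libraries labelled chondrocytes, whereas SOX9 reached 7.53 to 67.6 CPM. In chondrocytes the 3 libraries with media of MSC donor ORC stood apart from the other 6 media libraries, and comparisons that include them are given with and without them. In bulk RNA, fewer cells of a type and less RNA per cell cannot be told apart.

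**Figure D1:**
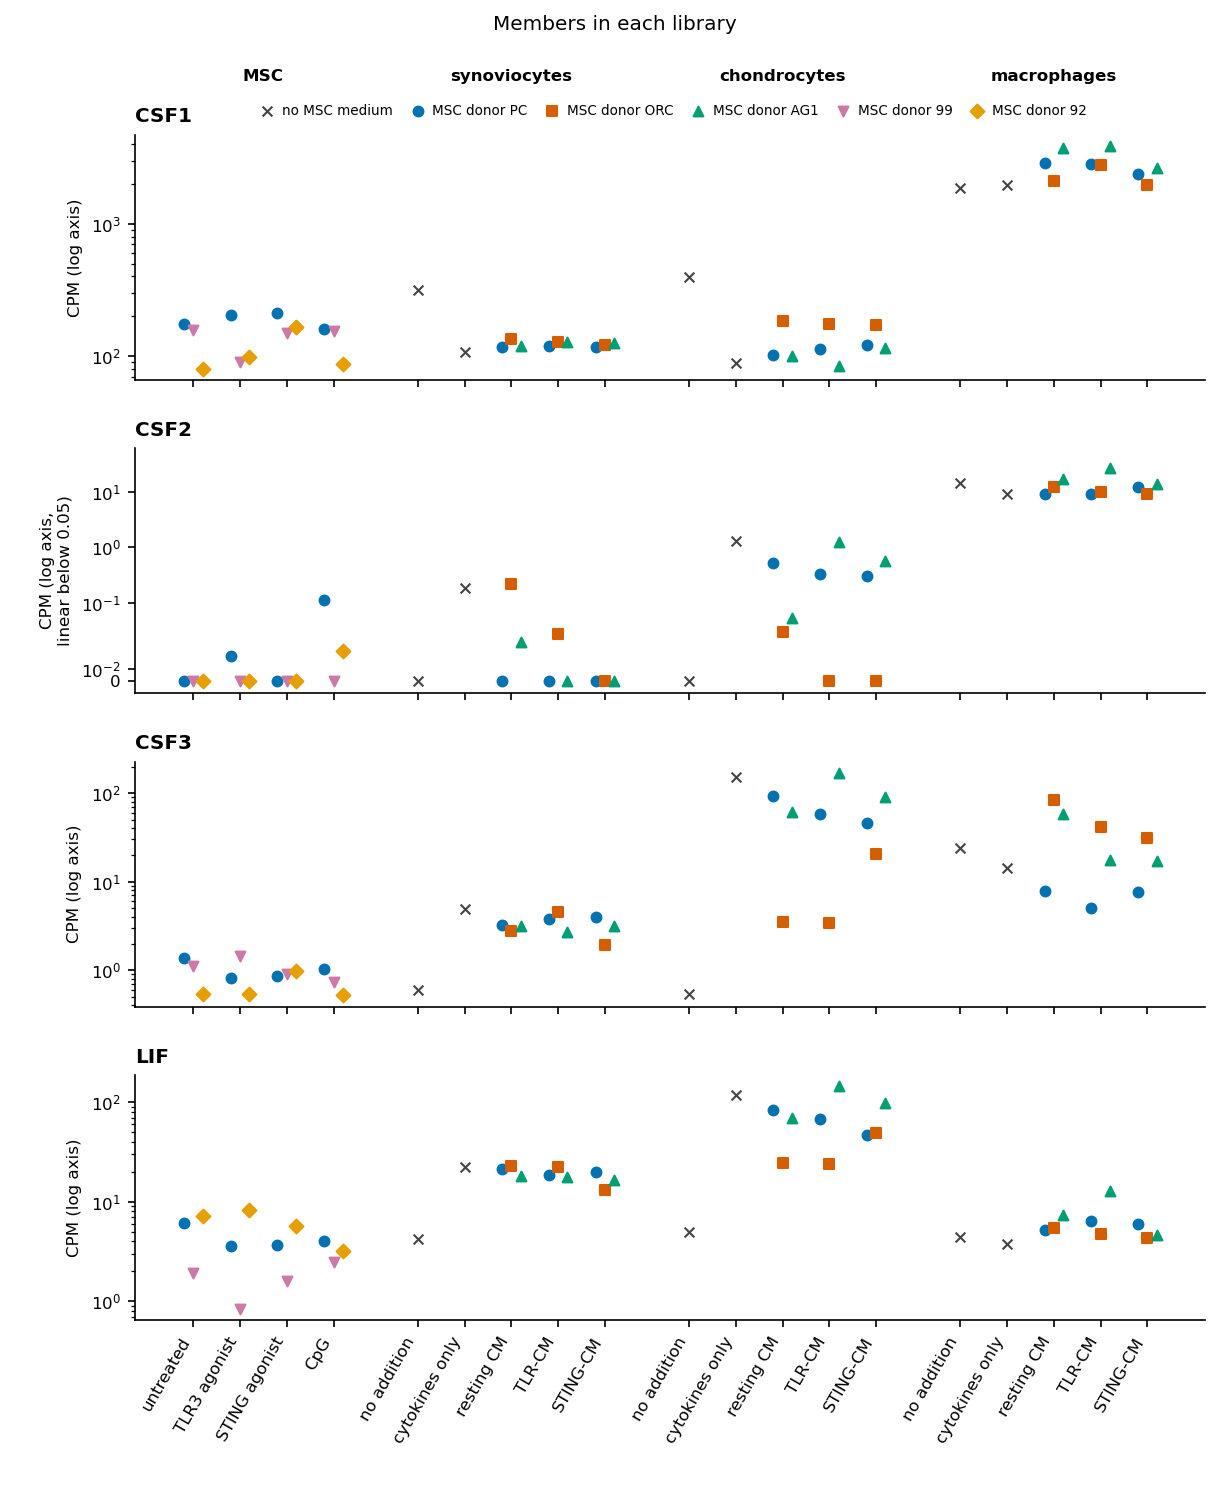
Level of each member in all 45 libraries. The vertical axes give CPM on a log scale (for CSF2 linear below 0.05), the horizontal axis gives cell type and condition, and colour and shape give the MSC donor. CSF1 and CSF2 were highest in macrophages, LIF was highest in stimulated chondrocytes, and CSF3 ranged from 3.38 to 169.5 CPM among chondrocytes given MSC media.

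CSF1 was counted abundantly in every library of every cell type. Macrophages held 1855 CPM with no addition and 1967 CPM with the cytokines only. With MSC media they held 1959 to 3875 CPM, a mean of 2797 ± 655 CPM (SD, n = 9). Resting MSC-CM libraries held 2866, 2110 and 3742 CPM with media of donors PC, ORC and AG1. MSC held 80.2 to 213 CPM over 12 libraries, and the synoviocytes and chondrocytes held 84.4 to 396 CPM. The macrophage range did not overlap with that of any other cell type.

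CSF2 was counted in every macrophage library and reached at most 50 counts in any other. Macrophages held 217 to 1002 counts per library, or 8.87 to 26.4 CPM. Chondrocytes held 0 counts with no addition and 50 counts with the cytokines only. With MSC media, chondrocytes held 16, 18 and 8 counts for donor PC (resting, TLR and STING), 1, 0 and 0 counts for donor ORC, and 2, 35 and 24 counts for donor AG1. Synoviocytes held at most 6 counts and MSC at most 4 counts in any library. An MSC or synoviocyte library without a count allows a level of up to 3 counts, which is at most 0.122 CPM in synoviocytes and 0.105 CPM in MSC. In macrophages 1 library had both the most CSF2 (TLR-MSC-CM of donor AG1, 26.4 CPM) and the highest T cell marker sum (318 CPM). The other 10 had sums of 174 to 211 CPM, and among them the sum and CSF2 did not follow the same order. Resting MSC-CM of AG1 held 16.9 CPM of CSF2 at a sum of 196 CPM, and the library with the cytokines only held 8.87 CPM at a sum of 209 CPM. The part of T cells in the CSF2 signal was not tested.

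CSF3 ranged from 0.517 to 169.5 CPM over the 45 libraries, with its highest level in a chondrocyte library. Chondrocytes with no addition held 0.540 CPM (14 counts), and those with the cytokines only held 151 CPM (5956 counts). The chondrocyte levels with MSC media of donor PC were 93.0, 58.4 and 45.7 CPM in the resting, TLR and STING conditions. Those with media of donor AG1 were 61.2, 169.5 and 90.8 CPM, whereas those with media of donor ORC were 3.49, 3.38 and 20.7 CPM. All ORC libraries lay below all 6 libraries of the other donors and above the library with no addition. Macrophages held 24.1 CPM with no addition and 14.2 CPM with the cytokines only, and 5.00 to 83.5 CPM with MSC media. Synoviocytes held 0.600 CPM with no addition, 4.86 CPM with the cytokines only and 1.91 to 4.50 CPM with MSC media. MSC held 0.517 to 1.45 CPM, or 19 to 69 counts.

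LIF followed a similar order within chondrocytes. The library with no addition held 4.98 CPM and that with the cytokines only held 119 CPM. With media of donor PC, the resting, TLR and STING libraries held 82.7, 67.0 and 46.9 CPM, and with media of donor AG1 they held 68.8, 144 and 97.8 CPM. With media of donor ORC they held 24.3, 23.7 and 48.9 CPM, so that the STING library of ORC lay within the range of the other donors and the other 2 below it. Synoviocytes held 4.20 CPM with no addition, 22.3 CPM with the cytokines only and 13.1 to 22.8 CPM with MSC media. Macrophages held 3.76 to 12.8 CPM and MSC 0.841 to 8.36 CPM over all their libraries.

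The levels were compared between joint cell types in the 9 libraries with resting MSC-CM, with edgeR's quasi-likelihood test and Benjamini-Hochberg adjustment over all 15599 genes tested. All 4 members differed between macrophages and synoviocytes (adjusted p below the 0.05 threshold), as did 71.6% of all genes tested. CSF1 was 4.53 higher on the log2 scale (SE 0.302, adjusted p = 2.29e-07), CSF2 7.20 higher (SE 0.772, adjusted p = 9.84e-06) and CSF3 3.98 higher (SE 1.07, adjusted p = 0.00654) in macrophages. LIF was lower there, at 5.15 to 7.38 CPM against 18.2 to 22.8 CPM, a log2 difference of -1.82 (SE 0.366, adjusted p = 0.00110). Against chondrocytes, where 71.5% of all genes were called, macrophages were higher in CSF1 by 4.48 and CSF2 by 5.90 and lower in LIF (log2 difference -3.29, adjusted p = 1.68e-05). CSF3 did not pass between macrophages and chondrocytes (SE 0.899 on the log2 scale, adjusted p = 0.935), and the values of the groups overlapped. Without the ORC media in these cell types the same 3 members were called, with CSF1 higher by 5.03, CSF2 by 5.56 and LIF at a log2 difference of -3.60.

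Between chondrocytes and synoviocytes, 2 of the 4 members passed, beside 18.1% of all genes. CSF3 was 4.08 higher on the log2 scale in chondrocytes (SE 1.07, adjusted p = 0.0246) and LIF 1.48 higher (SE 0.347, adjusted p = 0.0143), each in 3 of 3 media donors. With the MSC donor as a replicate block, CSF3 lost its call (adjusted p = 0.0561), and LIF alone was called. Leaving out 1 library at a time kept the direction but left 0 to 2 members called. No member was called without the chondrocyte library of donor AG1 or of PC, or without the synoviocyte library of AG1 or of PC, and 1 was called without the synoviocyte library of ORC. Without the chondrocyte library with ORC medium both were called, at log2 differences of 4.62 for CSF3 (adjusted p = 9.79e-04) and 1.84 for LIF (adjusted p = 9.89e-06). CSF1 did not pass in this comparison (adjusted p = 0.947).

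The response to IL-1β and TNF-α rests on 1 library against 1 in each cell type. The intervals given are exact Poisson 95% intervals, which cover counting error only, and the edgeR test assumes that the lone libraries vary like the 9 media libraries of the same cell type. CSF3 in chondrocytes was 279-fold higher with the cytokines, at 151 CPM (146.8 to 154) against 0.540 CPM (0.295 to 0.906). LIF in chondrocytes was 24.0-fold higher, at 119 CPM (116 to 123) against 4.98 CPM (4.16 to 5.91). CSF2 in chondrocytes was at least 10.9-fold higher, computed against a floor of 3 counts in the library with no addition. CSF1 went the other way in the stromal cells. It was 4.45-fold lower in chondrocytes with the cytokines (88.9 against 396 CPM) and 2.95-fold lower in synoviocytes (107 against 317 CPM).

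By that test edgeR called no member in chondrocytes, beside 0.966% of all genes, with adjusted p of 0.150 for CSF1, 0.265 for CSF3, 0.127 for LIF and 0.404 for CSF2. DESeq2 called CSF1, CSF3 and LIF there, and without the ORC media edgeR called all 4 members. In synoviocytes CSF1 (log2 fold change -1.55, SE 0.114, adjusted p = 1.74e-06), CSF3 (3.02, SE 0.512, adjusted p = 0.00232) and LIF (2.42, SE 0.263, adjusted p = 6.16e-05) were called, beside 7.03% of all genes. There CSF3 was 8.10-fold higher (4.86 against 0.600 CPM) and LIF 5.31-fold higher (22.3 against 4.20 CPM) with the cytokines. In macrophages, whose labelled cytokine dose was the lower of those given, CSF1 was 1.06 times, LIF 0.856 times, CSF2 0.617 times and CSF3 0.591 times its level without addition. No member and 0% of all genes were called there by edgeR, with 153 genes at an unadjusted p below 0.05 and 0 called by DESeq2.

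The replicated arm of resting MSC-CM was also set against the lone library with no addition, in a fit over all 11 libraries of a cell type that assumes the lone library to vary like the replicated ones. These wells received both the cytokines and the medium, and their parts cannot be told apart. The abstract of the paper places a wash between the cytokines and the medium, whereas its methods name none there. In synoviocytes 3 members passed, beside 11.7% of all genes tested. CSF1 was at 117, 135 and 119 CPM with media of PC, ORC and AG1 against 317 CPM, a fall of 1.36 on the log2 scale (log2 fold change -1.36, SE 0.0854, adjusted p = 3.13e-07). CSF3 rose by 2.35 (SE 0.465, adjusted p = 0.00445) and LIF by 2.31 (SE 0.234, adjusted p = 2.17e-05), and no synoviocyte library with resting MSC-CM overlapped with the control in these 3 genes. All 3 calls held when any 1 of the resting MSC-CM libraries was left out.

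In chondrocytes no member passed by edgeR, beside 2.65% of all genes, although CSF1 (log2 fold change -1.54, adjusted p = 0.115), CSF3 (6.67, adjusted p = 0.286) and LIF (3.63, adjusted p = 0.146) each had an unadjusted p below 0.05. DESeq2 called these 3, with adjusted p of 0.0151, 0.00907 and 0.00512. Without the library with ORC medium, CSF1 alone was called by edgeR (log2 fold change -1.91, adjusted p = 0.0462). Without all 3 libraries with ORC media, CSF1 (-1.91, adjusted p = 1.72e-06), CSF3 (7.21, adjusted p = 9.80e-05) and LIF (3.99, adjusted p = 1.49e-04) were called. In macrophages no member and 0% of all genes passed by edgeR, with 1152 genes at an unadjusted p below 0.05 and 18 called by DESeq2, none of them a member. Macrophage CSF1 was at 2110 to 3742 CPM with resting MSC-CM against 1855 CPM with no addition (log2 fold change 0.58, SE 0.293, adjusted p = 0.664).

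Resting MSC-CM was also compared with the library given IL-1β and TNF-α only, the comparison that bears on the medium itself. No member was called in any of the 3 cell types, and 0% of all genes were, with 389 to 621 genes at an unadjusted p below 0.05 and at most 1 called by DESeq2. Chondrocyte LIF was at 24.3 to 82.7 CPM with resting MSC-CM against 119 CPM with the cytokines only (adjusted p = 0.978). Without the ORC media the log2 fold change of LIF was -0.64 (adjusted p = 0.846), and no member was called. CSF3 in synoviocytes was at 2.79 to 3.24 CPM against 4.86 CPM (log2 fold change -0.67, SE 0.332, adjusted p = 0.936). Macrophage CSF1 lay above the cytokine-only library in 3 of 3 wells, and 0.55 higher on the log2 scale (SE 0.292, adjusted p = 0.986).

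**Figure D2:**
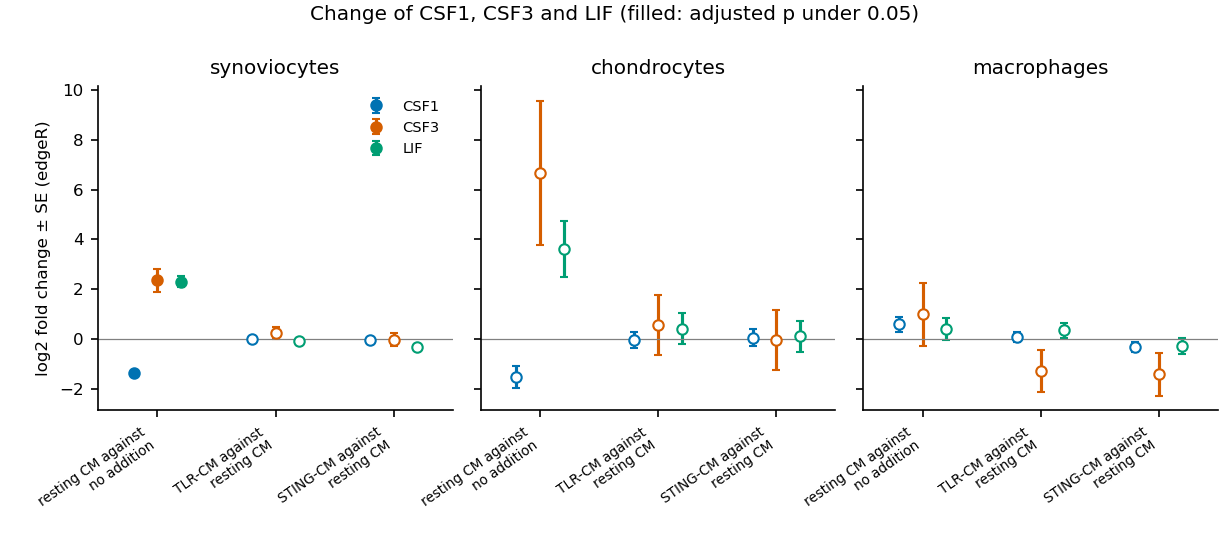
Log2 fold change ± SE (edgeR) of CSF1, CSF3 and LIF in synoviocytes, chondrocytes and macrophages for 3 comparisons: resting MSC-CM (n = 3) against no addition (n = 1), and TLR-MSC-CM and STING-MSC-CM (n = 3 each) against resting MSC-CM. Filled points have an adjusted p below 0.05, and the 3 filled points are all in synoviocytes against no addition.

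The main question of the design was whether media of activated MSC changed joint cells differently from media of resting MSC. In the 9 media comparisons of the joint cells and the 4 agonist comparisons of the MSC, no member was called, nor any other gene (0% in each) by edgeR. These comparisons held 36 to 1465 genes at an unadjusted p below 0.05, and DESeq2 called 0 to 93 genes, none of them a member. With the MSC donor as a replicate block, edgeR called 80 genes in macrophages between STING-MSC-CM and resting MSC-CM and 336 between STING-MSC-CM and TLR-MSC-CM. It called 2 genes each for the STING agonist in MSC and for STING-MSC-CM in chondrocytes, both against the resting or untreated group, and again no member. Of the 45 member tests, only LIF in synoviocytes, between STING-MSC-CM and resting MSC-CM, had an unadjusted p below 0.05. There LIF was at 20.1, 13.1 and 16.6 CPM with STING-MSC-CM and at 21.5, 22.8 and 18.2 CPM with resting MSC-CM of donors PC, ORC and AG1. It was lower in 3 of 3 donors, with overlapping groups. By edgeR the change was -0.33 on the log2 scale (SE 0.134), with an unadjusted p of 0.0282 and an adjusted p of 0.634.

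In macrophages CSF3 was lower with activated media in 3 of 3 donors. The levels with resting, TLR and STING media were 7.84, 5.00 and 7.66 CPM for PC, 83.5, 41.0 and 31.4 CPM for ORC, and 58.7, 17.6 and 17.3 CPM for AG1. All 3 PC libraries lay below all 6 others, and the log2 fold changes were -1.27 for TLR-MSC-CM (SE 0.848, adjusted p = 0.999) and -1.42 for STING-MSC-CM (SE 0.857, adjusted p = 0.907). Over the alternatives they ranged from -2.25 to -0.69 and from -2.03 to -0.83, the lowest without the TLR or STING library of ORC and the highest without its resting library. The main fit had no term for the MSC donor, and the alternatives (edgeR settings, with the donor block among them, and DESeq2) gave no call. Their lowest adjusted p was 0.775 for TLR-MSC-CM and 0.0598 for STING-MSC-CM. For the secreted protein the paper reports the other direction, with more G-CSF from macrophages given STING-MSC-CM. RNA and secreted protein are different measures, and the RNA levels do not give the amount secreted. Macrophage CSF1 was lower with STING-MSC-CM (2327 ± 344 CPM) than with TLR-MSC-CM (3157 ± 622 CPM, SD, n = 3 each) in 3 of 3 donors without overlap. That difference had an adjusted p of 0.736 (log2 fold change -0.40, SE 0.200), as did that of LIF in the same comparison (log2 fold change -0.62, SE 0.305). Over the same kinds of alternatives the lowest adjusted p was 0.0682 for CSF1 and 0.276 for LIF, again without a call. Synoviocyte CSF1 was 123 ± 10.0, 125 ± 5.19 and 122 ± 3.85 CPM in the resting, TLR and STING conditions (SD, n = 3 each).

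In chondrocytes the media comparisons had wide errors for CSF3 and LIF (SE 1.21 and 0.612 or 0.613 on the log2 scale), with an ORC library in every condition. CSF3 was at 52.6 ± 45.4, 77.1 ± 84.6 and 52.4 ± 35.5 CPM with resting, TLR and STING media (SD, n = 3 each). Without the ORC libraries no member was called either. Whether the cell types responded differently to TLR-MSC-CM or STING-MSC-CM was tested in 6 contrasts over the 27 media libraries. None of the 24 member tests was called, and the lowest unadjusted p was 0.150. With the MSC donor as a replicate block within each cell type, again no member was called, and 0 to 17 genes were. Without the chondrocyte libraries with ORC media no member was called either. Without the block no gene was called by edgeR in these contrasts (0%), with 285 to 726 genes at an unadjusted p below 0.05 and at most 4 called by DESeq2.

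In the MSC themselves, CSF1 was at 138 ± 51.1 CPM untreated, 130 ± 63.4 CPM with the TLR3 agonist, 176 ± 32.7 CPM with the STING agonist and 135 ± 40.8 CPM in the CpG libraries (SD, n = 3 each). LIF was at 5.10 ± 2.78, 4.26 ± 3.80, 3.66 ± 2.04 and 3.24 ± 0.762 CPM in the same order. LIF with the STING agonist was below the untreated library of the same donor in 3 of 3 donors, at 3.71 against 6.18 CPM for PC, 1.59 against 1.94 CPM for 99 and 5.67 against 7.18 CPM for 92. The SD of 2.78 CPM is the spread between untreated donors and does not measure the spread of these differences within donors. LIF was not called in this comparison, with or without the MSC donor as a replicate block. The macrophage marker sum given above, in which only 1 of 11 markers had a mean above 1 CPM in MSC, moved with the agonists. Its part in these levels was not tested.

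The media of the 3 MSC donors were then compared with each other, in a fit of condition and donor over the 9 media libraries of a cell type. This comparison was added after the values had been seen, and the donor of a medium cannot be told apart from any batch of wells that goes with it. The wells of 1 donor stood as its replicates, so these p-values do not measure the spread between donors. In chondrocytes all 4 members were called for ORC media against the mean of the PC and AG1 media, beside 41.4% of all genes tested. CSF1 was higher with ORC media, at 185, 175 and 173 CPM against 84.4 to 120 CPM, without overlap (log2 difference 0.81, SE 0.0673, adjusted p = 1.89e-07). CSF3 was 9.28-fold lower (log2 difference -3.21, SE 0.497, adjusted p = 9.62e-05), a difference that ranged from -4.72 without the STING-MSC-CM library of ORC to -2.60 without its TLR-MSC-CM library. LIF was 2.48-fold lower (log2 difference -1.31, SE 0.252, adjusted p = 6.47e-04). CSF2 had 1 count in the 3 ORC libraries together against 2 to 35 counts in each of the other 6 (adjusted p = 0.00519). The summed level of 9 chondrocyte markers moved with this split, at 583, 621 and 485 CPM with ORC media (resting, TLR and STING) against 158 to 244 CPM in the other 6 libraries, 766 CPM with no addition and 164 CPM with the cytokines only. That sum was 146 to 338 CPM in synoviocytes and 222 to 875 CPM in MSC, so it did not mark chondrocytes alone. Of the 9 markers, 4 had a mean above 1 CPM in chondrocytes. The part of this sum in the result was not tested.

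AG1 and PC media were each set against a mean that includes the ORC media, so their contrasts rest on the ORC libraries too. With AG1 media, beside 21.2% of all genes called, CSF1 was lower (log2 difference -0.55, adjusted p = 6.50e-05), and CSF2 (2.77, adjusted p = 0.0339), CSF3 (2.05, adjusted p = 0.00169) and LIF (1.09, adjusted p = 0.00282) were higher. For CSF2 that call was lost in 6 of 9 fits that left out 1 library. With PC media only CSF1 was called (log2 difference -0.26, adjusted p = 0.0180), beside 19.2% of all genes. Without the ORC media, where AG1 is compared with PC alone, none of these calls remained. The log2 difference of AG1 from PC was then -0.20 for CSF1 (adjusted p = 0.231), 0.41 for CSF2 (adjusted p = 0.837), 0.63 for CSF3 (adjusted p = 0.319) and 0.61 for LIF (adjusted p = 0.182).

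Over the 9 chondrocyte media libraries, CSF3 and LIF varied in the same direction and CSF1 in the opposite direction. Pearson's r of log2(TMM-normalized CPM + 1) was 0.965 for CSF3 with LIF, -0.942 for CSF1 with CSF3 and -0.911 for CSF1 with LIF. Over the 6 libraries without ORC media it was 0.977, -0.887 and -0.874. These are descriptions of wells that share donors of the media and 1 horse.

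**Figure D3:**
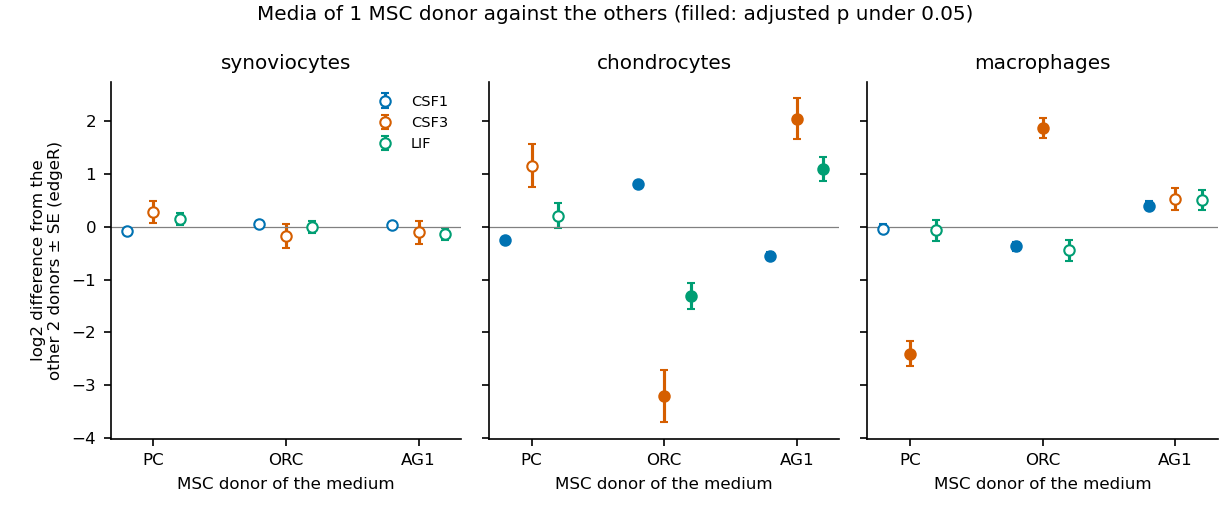
Log2 difference ± SE (edgeR) of CSF1, CSF3 and LIF between media of 1 MSC donor (3 libraries) and the mean of the other donors' media (6 libraries) in 3 joint cell types. Filled points have an adjusted p below 0.05. ORC media went with low CSF3 in chondrocytes (-3.21) and high CSF3 in macrophages (1.87), and no point is filled in synoviocytes. In macrophages the mean set against ORC includes the PC media, where CSF3 was lowest.

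Other genes known to respond to NF-κB were also lower with ORC media in chondrocytes, and the part of NF-κB in the members' levels was not tested. A list of 20 such genes was written with earlier results of these data known, and 19 were found by symbol. Their mean log2(CPM + 1) was 5.19 with no addition and 7.41 with the cytokines only. It was 6.79 to 7.48 in the 6 libraries with PC and AG1 media and 5.10, 5.15 and 5.56 in those with resting, TLR and STING media of ORC. Of 18 genes tested, 17 were called lower with ORC media and none higher, beside 20.4% of all genes called lower and 21% called higher, with a median log2 difference of -1.45 against -0.00078 over all genes. Among them were VCAM1, an adhesion molecule (log2 difference -3.29), CCL20, a chemokine (-3.97), SOD2, a mitochondrial superoxide dismutase (-1.46), and BIRC3, an inhibitor of apoptosis (-0.86). Of 6 related ligands tested, 3 were lower and none higher. IL6 was lower by 1.67 (log2 difference -1.67, SE 0.125, adjusted p = 6.21e-08) and IL11 by 1.72 (log2 difference -1.72, SE 0.278, adjusted p = 1.47e-04). Of 5 regulators of mRNA decay tested, 1 was lower and 1 higher: ZC3H12A, an RNase that degrades cytokine transcripts (log2 difference -0.88, adjusted p = 1.93e-05), and ELAVL1, which binds and stabilises AU-rich transcripts (0.15, adjusted p = 0.0474). Of 13 genes of JAK-STAT signalling tested, 2 were higher and 5 lower. Among them were PIM1, a kinase induced by STAT proteins (log2 difference 1.39), the kinase JAK2 (-0.60), and the feedback inhibitors SOCS2 (-0.82) and CISH (-0.54).

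**Figure D4:**
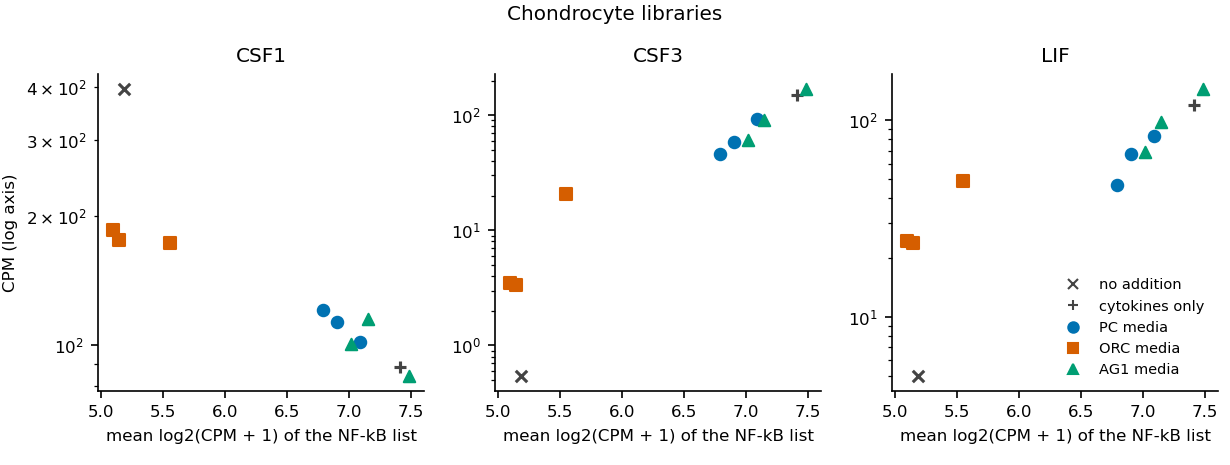
CPM (log axis) of CSF1, CSF3 and LIF in the 11 chondrocyte libraries against the mean log2(CPM + 1) of 19 genes known to respond to NF-κB. Libraries with ORC media lie at 5.10 to 5.56 on the horizontal axis near the library with no addition (5.19), and those with PC and AG1 media at 6.79 to 7.48.

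In macrophages the same media gave another order. CSF3 was higher with ORC media than with the other media (log2 difference 1.87, SE 0.197, adjusted p = 0.00131), beside 3.38% of all genes called. It was lower with PC media (log2 difference -2.41, SE 0.239, adjusted p = 0.00189), beside 6.17% of all genes called. The 3 PC libraries, at 5.00 to 7.84 CPM, lay below all others and are part of the mean set against ORC media. With ORC media CSF3 was at 31.4 to 83.5 CPM, which overlapped with AG1 media at 17.3 to 58.7 CPM. AG1 media went with higher CSF1 (log2 difference 0.40, SE 0.0868, adjusted p = 0.00914) and CSF2 (0.83, SE 0.170, adjusted p = 0.00664), beside 17.3% of all genes called. CSF2 with AG1 media was 0.52 higher (adjusted p = 0.0424) without the TLR-MSC-CM library that also had the highest T cell marker sum. The CSF1 call was lost without the resting MSC-CM library of AG1 (adjusted p = 0.109). ORC media went with lower macrophage CSF1 (log2 difference -0.37, adjusted p = 0.0472), a call that was lost in 5 of 9 fits without 1 library and under other normalization and filter settings. The NF-κB list was called higher in 4 and lower in 4 of its 19 genes with ORC media in macrophages.

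In synoviocytes no member was called for any donor of the media, nor any gene (0%) by edgeR, with 300 to 603 genes at an unadjusted p below 0.05 and 1 to 11 called by DESeq2. CSF1 there was at 117 to 135 CPM over all 9 media libraries. In MSC the donor is the source of the cells themselves, and the contrast used the 9 libraries without CpG. LIF was 2.76-fold higher in donor 92 (log2 difference 1.47, SE 0.237, adjusted p = 0.00139), beside 36.6% of all genes called. It was lower in donor 99 (log2 difference -1.90, SE 0.272, adjusted p = 0.00158), beside 35% of all genes. CSF1 was higher in donor PC (log2 difference 0.69, SE 0.190, adjusted p = 0.0240), beside 33.4% of all genes, and lower in donor 92 (log2 difference -0.60, adjusted p = 0.0438), and these CSF1 calls were lost in 5 and 6 of 9 fits that left out 1 library. CSF3 was not called in any MSC donor.

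The receptors of the members were divided between the cell types. CSF1R was at 444 to 875 CPM in macrophages and at most 0.304 CPM in any other library. CSF3R, also 1 of the neutrophil markers, was at 258 to 587 CPM in macrophages and at most 0.119 CPM elsewhere, and the part of neutrophils in its level was not tested. LIFR had the reverse pattern, at 11.5 to 14.7 CPM in synoviocytes, 12.2 to 19.4 CPM in chondrocytes, 0.189 to 2.31 CPM in MSC and at most 0.185 CPM in macrophages. IL6ST, the signalling partner shared by the IL-6 family, was counted in all cells at 103 to 758 CPM. The receptor chains of CSF2, CSF2RA and CSF2RB, were not matched by symbol and are not analysed here. With ORC media, 3 of 4 receptors tested were lower in chondrocytes and none higher, beside 20.4% of all genes called lower and 21% called higher. LIFR was lower (log2 difference -0.40, adjusted p = 0.00147), as were IL6ST (-0.27) and OSMR (-0.68), the oncostatin M receptor.

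**Figure D5:**
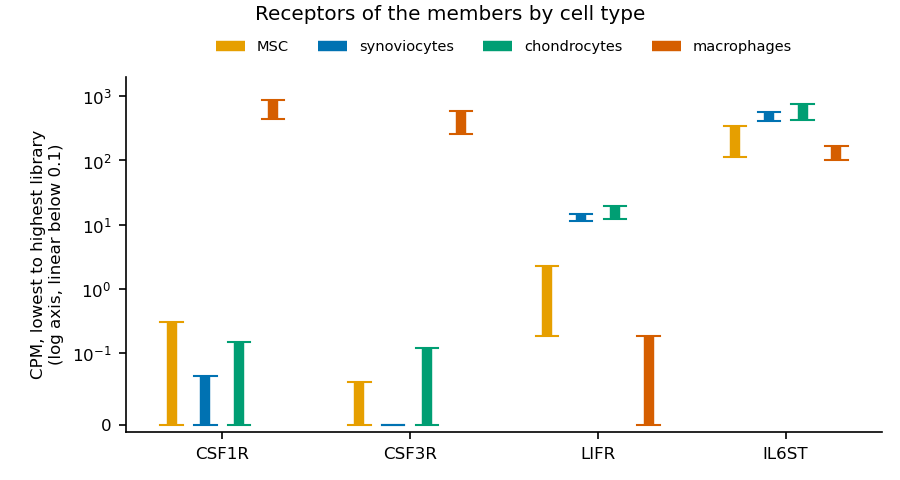
Range of CPM from the lowest to the highest library (log axis, linear below 0.1) of the receptor genes CSF1R, CSF3R, LIFR and IL6ST in 12 MSC libraries and 11 libraries each of synoviocytes, chondrocytes and macrophages. CSF1R and CSF3R lie at 258 CPM or above in macrophages and below 1 CPM elsewhere, and LIFR is at most 0.185 CPM in macrophages.

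Among genes of the same pathways in synoviocytes with resting MSC-CM against no addition, 10 of 18 tested genes of the NF-κB list were called higher and none lower, beside 6.51% of all genes called higher and 5.22% lower, with a median log2 fold change of 0.65 against 0.00049 over all genes. CXCL8, a chemokine for neutrophils, rose by 4.78 (SE 0.378, adjusted p = 2.04e-06), PTGS2, the inducible cyclooxygenase, by 3.61, and IER3, an immediate early gene, by 2.08 on the log2 scale. Of 6 related ligands tested, IL11 rose by 4.36 and IL6 by 1.82, and no other was called. ZC3H12A rose by 2.04, whereas ZFP36L2, a protein that binds AU-rich elements and promotes decay, fell (log2 fold change -0.93), 2 of 5 decay regulators tested. Of 13 genes of JAK-STAT signalling tested, 1 was called, STAT3, which transmits LIF and IL-6 signals and was lower (log2 fold change -0.49, adjusted p = 0.00439). Of 4 receptors tested, IL6ST was lower (log2 fold change -0.37, adjusted p = 0.0204).

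The genes most like each member over the 33 joint cell libraries were found by Pearson's r of log2(TMM-normalized CPM + 1) among 13397 genes with a mean of at least 1 CPM in some group. EEF2K (0.992), ABTB2 (0.991) and SORT1 (0.990) were most like CSF1. CD40, a receptor of antigen-presenting cells (0.987), SIRT7 (0.986) and MPC2 (0.986) were most like CSF2. The 33 points share 3 cell types and 1 horse for each, and with a pseudocount of 0.1 the leading genes for CSF2 became C1H15orf48, TICAM1 and VPS33B. ZFYVE27 (0.905), GRAMD1A (0.903) and IER3 (0.898) were most like CSF3. MVD (0.967), RPS6KA3 (0.955) and the unnamed gene ENSECAG00000039617 (0.95) were most like LIF.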

How the data were processed

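Total RNA was sequenced as paired reads from 12 MSC and 33 joint cell libraries. The authors trimmed reads with cutadapt 1.12, aligned them with STAR to the horse genome EquCab3.0, counted them per gene with HTSeq 0.11.0 on an Ensembl annotation and kept protein-coding genes. The deposited files hold raw counts per gene. Values of 1000000 or more were written with 3 significant digits (31 in the joint cell table and 10 in the MSC table), none of them in a member, and 3970 of 20881 genes carry an Ensembl identifier in place of a symbol.

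Groups were taken from the labels. The agonist dose was 10 ng/mL by the sample labels but 10 μg/mL by the text of the series. CPM was computed from total counts. Comparisons used edgeR 4.0.16 (TMM normalization, quasi-likelihood test) in R 4.3.3, over genes with at least 10 counts in the fit, Benjamini-Hochberg adjusted over all genes, with a threshold of 0.05. The SE of a log2 fold change was its size divided by the square root of F. No fitted fold change is given where a group was at 3 counts or fewer in every library. Alternatives were DESeq2 1.42.0, RLE size factors, other filters, the MSC donor as a block, and leaving out each library. The edgeR step was also run on simulated data. These held no difference between MSC donors, so they do not show how the fits behave under the donor split in chondrocytes.

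The 4 members and all lists were chosen with earlier results of these data known. The genes named are the members, the receptors by level, for each list up to 4 called genes with the lowest p in a comparison, and the 3 genes most like each member. The same MSC donor pairs libraries across conditions: deviations from the group means correlated within a donor with a median r of 0.742 (MSC), 0.349 (chondrocytes), 0.147 (macrophages) or 0.0129 (synoviocytes). Promoter and protein sequences were not used here.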

Additional observations from a re-analysis of the deposited data

Results flagged for a closer look

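The contrast of 1 MSC donor's media against the others differed between cell types for several members. The difference itself was tested over the 27 media libraries (edgeR, adjusted over 16584 genes), with the wells of 1 donor as its replicates. For ORC media, the contrast in chondrocytes minus that in macrophages was -5.13 for CSF3 (SE 0.620, adjusted p = 5.64e-06) and 1.18 for CSF1 (SE 0.119, adjusted p = 5.41e-07), beside 19.7% of all genes called. For CSF3 the macrophage side rests on a mean that includes the low PC media. CSF2 was called in the same comparison (adjusted p = 0.0199), without a fold because the ORC libraries of chondrocytes held at most 1 count.

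Against synoviocytes, the ORC contrast in chondrocytes differed by -3.11 for CSF3 (adjusted p = 0.00672), 0.75 for CSF1 (adjusted p = 1.29e-04) and -1.32 for LIF (adjusted p = 0.0107), beside 20% of all genes called. CSF2 was called there as well (adjusted p = 0.0182), again without a fold. The CSF3 call was lost in 1 fit and the LIF call in 3 fits that left out 1 library.

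For AG1 media, the contrast in chondrocytes differed from that in macrophages by -0.94 for CSF1 (adjusted p = 3.01e-05), beside 11.9% of all genes called. It differed from that in synoviocytes by -0.58 for CSF1 (adjusted p = 0.00669) and 1.24 for LIF (adjusted p = 0.0440), beside 4.31% of all genes called, and the LIF call was lost under DESeq2 (adjusted p = 0.0608) and in 17 of 27 fits that left out 1 library. The CSF1 call against synoviocytes was lost in 1 of them. For PC media, the contrast of CSF3 in chondrocytes minus that in macrophages was 3.58 (adjusted p = 0.00219), beside 3.46% of all genes called. Without the ORC media, where AG1 is compared with PC alone, the CSF1 difference between chondrocytes and macrophages kept its call (-0.46, adjusted p = 0.0411). The CSF1 and LIF differences between chondrocytes and synoviocytes for AG1, and the CSF3 difference for PC (1.35, adjusted p = 0.122), lost theirs.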

How the results depend on the processing

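The count of members called was 0 in all alternatives of the 13 media and agonist comparisons and of the 6 differences between cell types. The MSC donor as a replicate block changed 1 count, that of chondrocytes against synoviocytes with resting MSC-CM, from 2 to 1 (CSF3 4.00, adjusted p = 0.0561), and no other call of a member in the comparisons where it was run. Leaving out 1 library moved that count between 0 and 2. For resting MSC-CM against no addition in chondrocytes, the count was 0 with edgeR, 3 with DESeq2 (CSF1 -1.55, CSF3 6.66 and LIF 3.62) and 0 to 1 when 1 library was left out, and 3 without the ORC media. For the cytokines only against no addition in chondrocytes it was 0 with edgeR, 3 with DESeq2 and 4 without the ORC media. Over all genes, DESeq2 called 1020 and 789 in these comparisons against 384 and 140 by edgeR, and up to 93 where edgeR called 0. The causes were not tested.

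The contrast of PC media for CSF1 in chondrocytes turned to 0.198 without the ORC media. Directions also turned in 4 fits that left out 1 library, all of uncalled log2 fold changes. CSF1 in synoviocytes ranged from -0.0124 to 0.0648 for TLR-MSC-CM against resting MSC-CM, with -0.0032 without the TLR-MSC-CM library of AG1, and from -0.0573 to 0.0207 for STING-MSC-CM. LIF in macrophages with TLR-MSC-CM ranged from -0.134 to 0.582, the lowest without the TLR-MSC-CM library of AG1. Donor contrasts, the comparisons with no addition, the fits without ORC media and the block within cell types were chosen after seeing the data. The search of promoter motifs was not run, and CSF2 in MSC and in the synoviocyte media comparisons had too few counts for a test.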
